A study of Mus musculus with 26 samples.

Results

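The regions described here are the ATRX peaks of wild-type (WT) cells that recurred between replicates and lay at gene starts. Of the 9141 ATRX peaks of WT replicate 1, 880 (9.63%) overlapped an ATRX peak of WT replicate 2 by at least 1 bp and lay within 2 kb of the transcription start site (TSS) of a gene. Of the other peaks of the same list, 1981 lay as near to a TSS but had no counterpart in replicate 2, and 2349 recurred in replicate 2 but lay farther from any TSS. The TSS was the outermost start of each gene in the GENCODE M21 annotation of GRCm38 (mm10). Each region is called by its nearest protein-coding gene, or by the nearest gene of another kind where no protein-coding TSS was within 2 kb. The peaks were chosen on both WT ATRX lists, so their WT ATRX values are given as a description, without a test. Just inside the 2 kb limit were the peaks at AC132288.1, Gm17655 and Piezo1 with gaps of 1980, 1987 and 1993 bp, and just outside were peaks at Zfp367, Gm33838 and Dot1l with gaps of 2004, 2014 and 2033 bp. The smallest overlaps between the replicates were 5 bp at Wwtr1, 8 bp at Gm45640 and 9 bp at Fabp5, and peaks at Cflar, Col7a1 and Srrm1 missed a replicate 2 peak by 3, 3 and 6 bp.

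All libraries came from female mouse embryonic fibroblasts (MEFs). In CUT&RUN an antibody directs the release of bound chromatin fragments for sequencing, and 16 of its peak lists were used, 2 replicate libraries for each target and genotype. The ATRX lists cover the WT and ATRXΔRBR genotypes, and those of EZH2 and of H3K27me3 add ATRXKD. Polyadenylated RNA was sequenced in 2 libraries each of WT, ATRXΔRBR and ATRXKD cells. ATRXΔRBR cells are a single clone in which Cas9 and a pair of guide RNAs removed the RNA-binding region of endogenous ATRX in frame. Properties of the clone and of the deletion therefore cannot be told apart. The Cas9 plasmid carries a puromycin marker, and the study's methods do not state whether these cells were selected with it. ATRXKD cells carry an shRNA against Atrx and were selected with puromycin. The WT cells are the parental line. The study's methods call the replicates biological, but neither they nor the labels say how separately the cells of a genotype were grown, so p-values cover the spread between these libraries.

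ATRX is an ATPase of the SWI/SNF family that works with the histone chaperone DAXX to place the histone variant H3.3, and it is best known at pericentromeric heterochromatin, telomeres and GC-rich tandem repeats. It also binds RNA and has been linked to the placement of PRC2, the complex whose catalytic subunit EZH2 methylates lysine 27 of histone H3. The trimethylated form, H3K27me3, marks silent genes, many of them regulators of development.

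Short stretches at the centres of 9 of these peaks show what kind of DNA they held. All are 120 bp long, overlap no annotated exon, run 5′ to 3′ on the strand of the gene, and were read from the RefSeq sequence of GRCm38.p6. The first 3 have the highest fold enrichment, among peaks whose centre is free of exons, of 3 classes that recur in the results. The peak at Senp2 (chr16:22009239-22009358, + strand) had the highest fold enrichment of the 880. The peak at Catspere2 (chr1:177983206-177983325, + strand) is the 1 peak that overlapped a peak in all 14 other lists, H3K27me3 included. The peak at Slc39a13 (chr2:91068983-91069102, − strand) had no ATRX peak in ATRXΔRBR.
Senp2: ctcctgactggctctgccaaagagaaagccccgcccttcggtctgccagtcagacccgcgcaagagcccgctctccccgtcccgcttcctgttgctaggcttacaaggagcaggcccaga
Catspere2: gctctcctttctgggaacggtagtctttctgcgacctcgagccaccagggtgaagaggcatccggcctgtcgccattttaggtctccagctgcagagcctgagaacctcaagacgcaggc
Slc39a13: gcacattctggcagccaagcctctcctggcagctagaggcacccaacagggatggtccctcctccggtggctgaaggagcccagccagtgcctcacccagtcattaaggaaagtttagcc

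The other 6 stretches show the letters TGACTCA, known as the AP-1 motif, and CCAAT, known as the NF-Y motif, which recurred at the peak centres. They were chosen after the motif counts were seen. Capitals mark each match to either motif on either strand, so that TGAGTCA and ATTGG are the same motifs read from the other strand. The AP-1 set is the peaks at Gm47507 (chr13:5886983-5887102, + strand), Gm12415 (chr4:84741326-84741445, + strand) and Stk40 (chr4:126102540-126102659, + strand). The NF-Y set is the peaks at Kmt5c (chr7:4739790-4739909, + strand), Creb3l2 (chr6:37442329-37442448, − strand) and Fam83d (chr2:158767917-158768036, + strand).
Gm47507: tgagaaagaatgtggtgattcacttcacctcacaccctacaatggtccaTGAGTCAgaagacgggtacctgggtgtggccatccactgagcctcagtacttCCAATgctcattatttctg
Gm12415: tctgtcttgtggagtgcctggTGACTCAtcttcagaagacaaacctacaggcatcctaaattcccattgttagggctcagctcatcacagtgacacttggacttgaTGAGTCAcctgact
Stk40: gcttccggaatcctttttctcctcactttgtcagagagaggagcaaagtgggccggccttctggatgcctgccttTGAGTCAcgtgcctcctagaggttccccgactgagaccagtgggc
Kmt5c: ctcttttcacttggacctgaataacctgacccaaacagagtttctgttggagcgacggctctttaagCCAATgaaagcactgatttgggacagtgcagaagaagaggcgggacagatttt
Creb3l2: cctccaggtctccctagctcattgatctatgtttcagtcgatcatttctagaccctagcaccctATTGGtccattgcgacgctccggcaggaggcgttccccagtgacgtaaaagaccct
Fam83d: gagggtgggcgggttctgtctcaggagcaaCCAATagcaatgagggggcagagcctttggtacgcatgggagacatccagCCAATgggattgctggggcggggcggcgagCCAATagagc

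Most of the 880 peaks were narrow and centred close to the start of their gene. Their median width was 412 bp, with quartiles of 254 and 635 bp. The peak centre lay within 500 bp of the TSS for 572 peaks, with a median distance of 260.5 bp, and 394 peaks covered the TSS itself. Centres lay upstream of the TSS at 497 peaks and downstream at 380. Fold enrichment over the local background, as the peak caller gave it, had a median of 4.50 (range 1.33 to 7.85) in WT replicate 1 and 4.37 (range 1.64 to 9.22) for the counterparts in replicate 2. The peaks of replicate 1 without a counterpart were narrower, with a median of 286 bp, and had a median fold enrichment of 4.18. The counterparts themselves were part of the rule, so no test bears on that difference.

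The highest fold enrichment in replicate 1 was 7.85 at Senp2, which encodes a SUMO protease, against 4.10 in replicate 2. Next came Gm13285 with 7.62, Kbtbd3 with 7.59, and Hjurp, the chaperone of the centromeric histone CENP-A, with 7.55. Trim24 (7.50), Plekhh2 (7.45), 2010315B03Rik (7.23), AC122253.2 (7.18), Kmt5c (7.08) and Creb3l2 (7.04) completed the 10 highest. The order was not kept in replicate 2, where Kmt5c, a methyltransferase of lysine 20 of histone H4, had 7.50 and Gm13285 had 3.44.

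The 880 peaks reached 1189 genes, of which 780 were protein-coding. A single gene was within 2 kb of 610 peaks, 2 genes of 222, and 3 or more of 48. Protein-coding genes had such a peak in 3.54% of cases (780 of 22028), against 2.14% of all 55536 annotated genes, 1.90% of lincRNA genes and 4.74% of bidirectional promoter lncRNA genes (9 of 190). Protein-coding genes that face another protein-coding TSS within 1 kb made up 15.6% of those at these peaks (122 of 780), 16.8% of those at the peaks of replicate 1 alone, 10.6% of those with EZH2 and no ATRX, and 6.76% of all. Per 1000 protein-coding genes of a chromosome there were 77.4 peaks on chromosome 10 and 75.2 on chromosome 15, but 13.3 on chromosome 7, 9.49 on the X and 0 on the Y. Chromosomes 10, 15, 7 and X held 8.98%, 6.7%, 3.07% and 1.02% of the 880. They held 10.1%, 6.73%, 1.75% and 1.83% of the recurrent ATRX peaks outside promoters, so this spread was not particular to promoters.

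A small group of 20 peaks was wider than 2 kb, and 15 of these had a small RNA gene within 2 kb (annotated as snRNA, snoRNA, scaRNA, rRNA or misc_RNA), such as Rnu5g (3112 bp), Rnu2-10 (2259 bp) and Rnu3b4 (2176 bp), which encode the U5, U2 and U3 RNAs. These genes were chosen after their values were seen. Peaks with a small RNA gene within 2 kb numbered 52 and had a median width of 1056 bp, and 27% of the bases at their centres were masked as repeats, against 9.17% over all 880 peaks. Small nuclear RNA genes are members of multicopy families, and reads from near-identical copies cannot be placed with certainty.

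The sequence at the centres of these peaks lay between that of CpG-rich promoters and that of ATRX peaks outside promoters. In windows of 300 bp at the peak centre, GC content was 55.9% ± 9.45 (SD over 880 peaks), 64.7% at 7178 reproducible WT EZH2 promoter peaks without WT ATRX, 46.8% at ATRX peaks outside promoters, and 55.1% at all protein-coding promoters (250 bp before to 50 bp after the TSS). The ratio of observed to expected CpG was 0.585, 0.778, 0.232 and 0.519 in the same order. The letters CGCG stood in 51.4% of these peaks, 79.0% of the EZH2 peaks without ATRX and 6.26% of the ATRX peaks outside promoters. A G-quadruplex pattern, 4 runs of at least 3 G with gaps of 1 to 7 bases on either strand, stood in 14.9% of these peaks, 28.2% of the EZH2 peaks without ATRX, and 20.7% of protein-coding promoters.

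CCAAT was found on either strand in 51.2% of the 880 windows, 44.4% of the peaks of replicate 1 alone, 33.2% of ATRX peaks outside promoters, 26.1% of EZH2 peaks without ATRX, and 38.4% of all annotated promoters of the same length. TGACTCA was found in 17.0%, 13.7%, 47.9%, 3.75% and 4.74% of the same sets. Matches of the 2 motifs can share 1 base at their ends, and a match is a description of the sequence, not of binding. Both were densest at the peak centre. CCAAT had 3670 and 3534 matches per Mb in the 100 bp bins before and after the centre of these peaks and 1489 and 1352 in the outermost bins, and TGACTCA had 614 and 852 against 159 and 239. The motifs divided the peaks by position. Where the centre lay within 500 bp of the TSS, as at Fam83d, 60.5% of windows held CCAAT and 8.92% held TGACTCA. Farther away, as at Stk40, 34.1% held CCAAT and 32.1% held TGACTCA.

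**Figure D1:**
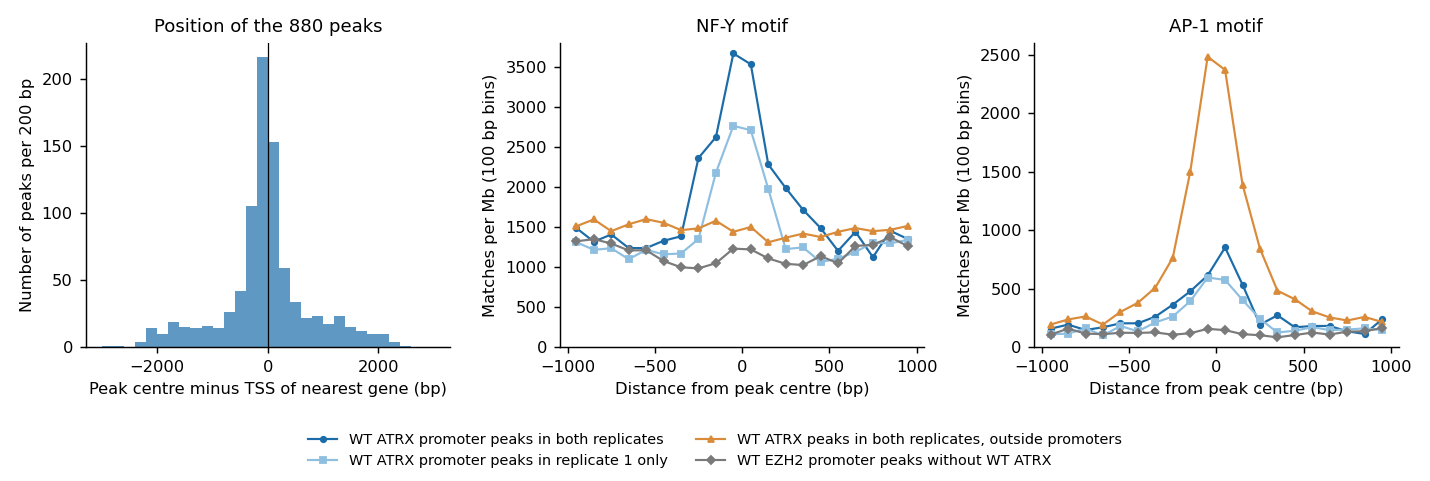
Left, number of peaks per 200 bp by distance of the peak centre from the TSS of the nearest gene. Middle and right, matches of the NF-Y and AP-1 motifs per Mb in 100 bp bins around the peak centre for the 880 WT ATRX promoter peaks and 3 comparison sets. Matches of both motifs peak at the centre of the 880, at 3670 and 852 per Mb, while the AP-1 motif is denser at ATRX peaks outside promoters.

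Overlap with the ATRXΔRBR lists was counted next. The 880 were chosen for a call in both WT lists, so a missing call in another list cannot show that a site needs the RNA-binding region. Between the WT replicates themselves, 1981 of the 2861 promoter peaks of replicate 1 had no counterpart. Of the 880 peaks, 69.5% overlapped an ATRX peak of ATRXΔRBR replicate 1 and 60.0% one of replicate 2 (64.8% ± 6.75, SD, n = 2). The peaks of WT replicate 1 alone overlapped in 40.4% and 10.8% of cases, and the recurrent WT peaks outside promoters in 54.3% and 76.6%. The 2 ATRXΔRBR lists thus differed in opposite directions at promoters and elsewhere, and they hold 2956 promoter peaks of 6274 and 1266 of 4813. Sets of regions are not replicates, and no test was made between them. A total of 379 peaks (43.1%) had ATRX in both ATRXΔRBR lists, 233 in replicate 1 alone, 149 in replicate 2 alone and 119 in neither. The peak at Hjurp was in both, that at Trim24 in replicate 1 alone, that at Gm17655 in replicate 2 alone, and that at Smc3, which encodes a cohesin subunit, in neither.

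These classes differed in width and sequence. Peaks in both ATRXΔRBR lists had a median width of 502 bp, those in replicate 1 alone 403 bp, those in replicate 2 alone 312 bp and those in neither 275 bp. In the narrowest quartile (141 to 254 bp) 48.0% and 52.5% overlapped a peak of ATRXΔRBR replicates 1 and 2, and in the widest quartile (638 bp or more) 81.4% and 72.3%. A wider region overlaps another list more readily, and the part of width in these shares was not tested. CCAAT stood in 62.7% of the windows of the replicate 1 class, 44.3% of the replicate 2 class, 52.0% of the class in both and 35.3% of the class in neither. TGACTCA stood in 9.44%, 26.8%, 17.7% and 17.6%, in the same order.

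The peaks without ATRX in either ATRXΔRBR list included, by fold enrichment in WT replicate 1, those at Slc39a13 (6.97), a zinc transporter gene, 4933415A04Rik (5.53), Gm25625 (5.48), Smc3 (5.45), Afg1l (5.45), Slx4 (5.43), a scaffold of DNA repair nucleases, Txn1 (5.33), which encodes thioredoxin, and Ifngr2 (5.26), a chain of the interferon gamma receptor. Of these 8, the peaks at Smc3 and Afg1l kept an EZH2 peak in all 6 EZH2 lists, and that at Gm25625 had none.

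**Figure D2:**
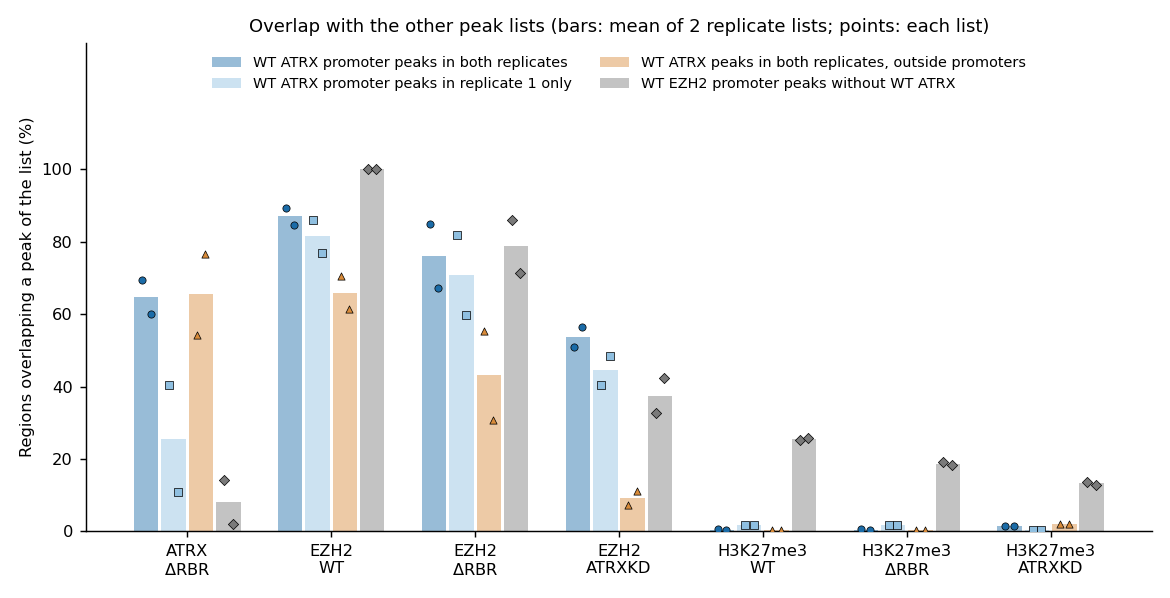
Share of regions (%) that overlapped a peak of each other list by at least 1 bp, for the 880 WT ATRX promoter peaks and 3 comparison sets. Bars are the mean of 2 replicate lists and points each list. The 880 overlapped EZH2 in 87.0% of cases in WT and H3K27me3 in 0.455%, and the EZH2 set is at 100% in EZH2 WT by its definition.

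Most of these peaks coincided with EZH2. In WT, 89.4% and 84.5% of the 880 overlapped an EZH2 peak of replicates 1 and 2 (87.0% ± 3.46, SD, n = 2), and 722 overlapped both. For comparison, 50.4% and 46.6% of all protein-coding TSS with 2 kb on each side overlapped those lists, as did 85.9% and 77.0% of the peaks of replicate 1 alone and 70.5% and 61.4% of the ATRX peaks outside promoters. An EZH2 peak was present in 626 and 615 of the 660 peaks called by a protein-coding gene, and in 161 and 129 of the 220 called by another gene. In ATRXΔRBR the shares were 84.9% and 67.3% (76.1% ± 12.5, SD, n = 2), a mean difference from WT of −10.9 percentage points. The WT and ATRXΔRBR values overlapped, and the two-sided exact permutation test over the 4 libraries gave p = 0.667 (0.889 after Benjamini-Hochberg adjustment over 4 tests). The ATRXΔRBR replicate 2 list held 11408 peaks, against 18351 to 22418 in the other 3. The mean share was also lower in ATRXΔRBR than in WT for other regions. It was 70.8% against 81.5% at the peaks of replicate 1 alone and 43.08% against 65.96% at the ATRX peaks outside promoters. For all protein-coding TSS with 2 kb on each side it was 41.96% against 48.49%. A lower EZH2 share in ATRXΔRBR was therefore not particular to the 880. Of the 722 peaks with EZH2 in both WT lists, 22 had it in neither ATRXΔRBR list. Of the 71 with EZH2 in neither WT list, 0 had it in both ATRXΔRBR lists. The same counts were not made for other regions, so they are not read as a trait of these peaks.

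In ATRXKD cells 51.0% and 56.6% of the 880 overlapped an EZH2 peak (53.8% ± 3.94, SD, n = 2), 33.2 percentage points under WT. The values did not overlap those of WT, but 2 libraries against 2 cannot give less than p = 0.333 in the exact permutation test, and that was the value (0.666 adjusted). The ATRXKD lists were much shorter, with 5376 and 7093 EZH2 peaks. The peaks of WT replicate 1 alone overlapped them in 40.4% and 48.6% of cases, and all protein-coding TSS with 2 kb on each side in 19.4% and 24.7%. The ATRX peaks outside promoters did so in 7.32% and 11.3%. The EZH2 promoter peaks without ATRX, which were chosen for EZH2 in both WT lists, did so in 32.6% and 42.5%. Whether fewer peaks were called because of the libraries or because of the cells cannot be told apart from the lists. An EZH2 peak was in both ATRXKD lists at 420 of the 880. Of the 722 with EZH2 in both WT lists, 213 had none in either ATRXKD list, a count not made for other regions. All 6 EZH2 lists held a peak at 387 of the 880, Senp2, Kbtbd3, Hjurp, Trim24, Kmt5c and Creb3l2 among them. By class, the ATRXKD overlap was 70.8% and 76.4% where ATRXΔRBR replicate 1 alone had ATRX, 54.6% and 60.4% where both had, 28.2% and 30.9% where replicate 2 alone had, and 29.4% and 37.8% where neither had. The peaks with protein-coding TSS facing each other within 1 kb numbered 60, and 50 and 51 of them overlapped the ATRXKD lists.

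EZH2 was absent from both WT lists at 71 peaks. These were lower in GC content (46.2% against 57.9% at the 722 with EZH2 in both), more often masked as repeats (24.9% against 6.55% of bases) and held TGACTCA more often (25.4% against 13.3%). ATRX was in ATRXΔRBR replicate 1 at 34 of them and in replicate 2 at 53. Led by fold enrichment in WT replicate 1, they were Gm17655 (6.80), 2310043O21Rik (6.65), Gm47507 (6.25), Asmt (5.75), Gm37555 (5.71), Gm8883 (5.70), Gm22145 (5.62) and Gm25625 (5.48). Asmt, the last enzyme of melatonin synthesis, and Gm17655 are the protein-coding genes among these 8, and RNA of the other 6 was at 3.14 TPM or less in each WT library.

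H3K27me3 was nearly absent. In the WT lists, 5 and 3 of the 880 overlapped an H3K27me3 peak of replicates 1 and 2 (0.455% ± 0.161, SD, n = 2), against 25.4% and 25.8% of the EZH2 promoter peaks without ATRX and 15.5% and 16.4% of all protein-coding TSS with 2 kb on each side. The WT lists held 36011 and 38832 H3K27me3 peaks, and those of ATRXKD 7241 and 6336. With the ATRXΔRBR lists, 5 and 4 of the 880 overlapped (exact permutation p = 1.0). Counting any H3K27me3 peak within 2 kb of the TSS of the same genes, the shares were 1.02% in both WT lists and 2.5% in both ATRXΔRBR lists, which no longer overlapped. Over all protein-coding TSS with 2 kb on each side the ATRXΔRBR shares were 16.1% and 14.6%, which overlapped those of WT. The median width of H3K27me3 peaks was 1213 and 1267 bp in the WT lists and 1838 and 1902 bp in those of ATRXΔRBR. The part of width in these shares was not tested. Of the 880 peaks themselves, with the ATRXKD lists 14 and 13 overlapped (mean 1.53%, exact permutation p = 0.333, the smallest possible). The higher ATRXKD share rested on 9 peaks of low fold enrichment described next, and was 0.517% without them. The 3 peaks with H3K27me3 in both WT lists were those at Wfs1, which encodes the endoplasmic reticulum protein wolframin, Catspere2, a subunit gene of a sperm calcium channel, and the zinc finger gene Zfp959. The first and the last had no H3K27me3 peak in ATRXΔRBR or ATRXKD, while Catspere2 had one in every list. RNA of Catspere2 was at 0 and 0.11 TPM in WT, that of Wfs1 at 6.56 and 9.81, and that of Zfp959 at 8.18 and 10.0. Of the 880, 24 overlapped H3K27me3 in at least 1 of the 6 lists.

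The 9 peaks of fold enrichment under 2 stood apart from the rest. They lay at Gm29216, Gm21738, Gm23935, Gm42418, Gm13340, Gm10801 (2 peaks), Gm10800 and Gm10719, and the widest, at chr9:3000034-3038284, spanned 38251 bp and 11 genes. At their centres 43.9% of bases were masked as repeats. All 9 overlapped EZH2 and H3K27me3 in both ATRXKD lists, while 2 and 0 overlapped EZH2 and 0 overlapped H3K27me3 in WT. Reads from repeated sequence cannot be placed with certainty.

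The RNA-Seq libraries held between 9051693 and 21723647 estimated counts. Atrx itself was at 233 and 141 TPM in the WT libraries, with 175 and 124 in those of ATRXΔRBR, and at 331 and 512 in those of ATRXKD. By edgeR its counts were not detectably lower in the libraries labelled ATRXKD (log2 fold change −0.15, SE 0.21, adjusted p = 0.604) or in ATRXΔRBR (−0.63, SE 0.22, adjusted p = 0.14). The ATRXΔRBR deletion removes a part of the gene that the counts do not separate, so the latter does not check that label, and the ATRXKD comparison is described as one of libraries with that label. In TPM both ATRXKD values of Atrx lay above both WT values. The study reports ATRX as depleted in its knockdown MEFs, with a western blot of ATRX and DAXX, and RNA does not measure protein. Markers fixed for fibroblasts summed to between 11670 and 23620 TPM, and those for epithelial, endothelial, immune, neural and pluripotent cells to at most 5.65, 5.38, 14.6, 51.5 and 0.35. None of the markers of those 5 other cell types had one of the 880 peaks.

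Genes at these peaks were well expressed. The 774 protein-coding genes with RNA-Seq values had medians of 34.2 and 39.6 TPM in WT. The medians were 42.4 and 37.6 in the ATRXΔRBR libraries and 44.0 and 44.9 in those of ATRXKD. Of the same genes, 88.8% and 89.7% were at 1 TPM or more in the WT libraries. All protein-coding genes had WT medians of 1.47 and 1.70. Genes with EZH2 but no ATRX split by H3K27me3: those without it had medians of 31.4 and 35.6 TPM and those with it in both WT lists 0.09 and 0.09. The genes at the peaks of WT replicate 1 alone, at 32.8 and 38.4, stood close to those at the 880. Among protein-coding genes with any RNA in WT, the share with one of the 880 peaks rose from 0.674% in the lowest decile of expression to 8.55% in the highest. Over the same deciles it went from 1.08% to 19.5% for peaks of WT replicate 1 alone and from 24.4% to 46.7% for EZH2 without ATRX. Over genes of all types at these peaks the WT medians were 12.99 and 15.5 TPM, and at the peaks without EZH2 in WT 0.29 and 0.36. The 24 protein-coding genes at the peaks without EZH2 in WT had medians of 32.5 and 58.3 TPM.

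**Figure D3:**
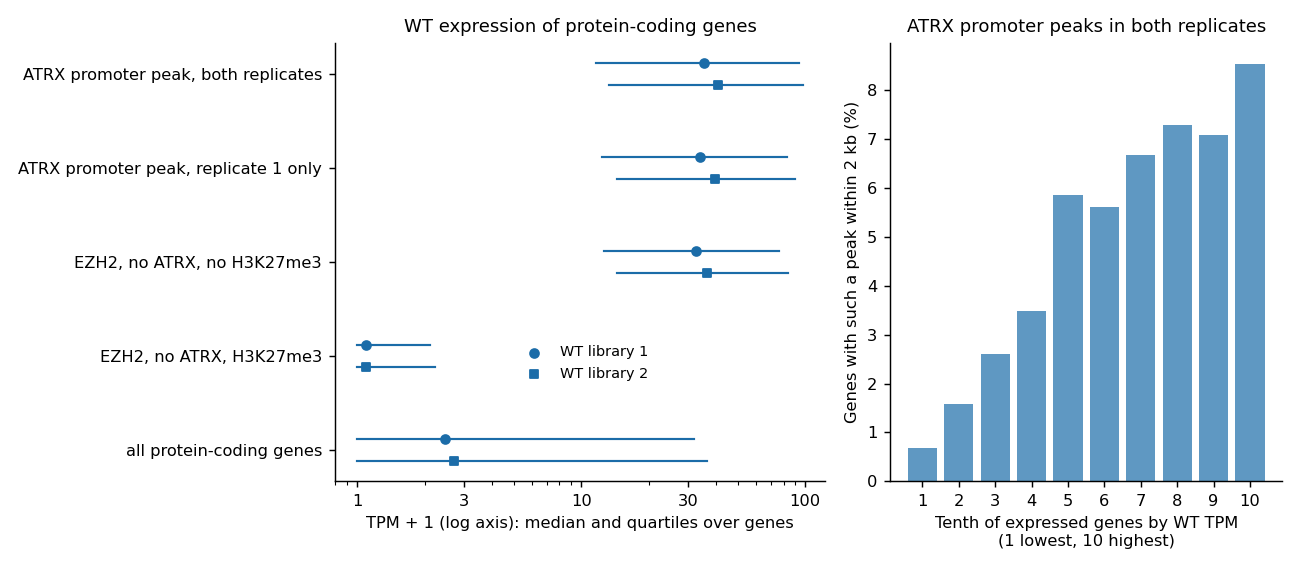
Left, median (symbols) and quartiles (lines) of TPM + 1 on a log axis over protein-coding genes in each WT library. Right, share of protein-coding genes with one of the 880 peaks, by decile of expression in WT. Genes at these peaks had medians of 34.2 and 39.6 TPM, and the share rises from 0.674% to 8.55%.

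The most abundant transcripts at these peaks were chosen after their values were seen. S100a6, a calcium-binding protein gene, had 11496 and 7658 TPM in WT, Lgals1, which encodes galectin-1, 6348 and 5679, Vim, which encodes vimentin, 5615 and 3903, S100a4 4166 and 4164, and Hsp90b1, a chaperone of the endoplasmic reticulum, 1686 and 2332. The peak at S100a6 was among the 11 that overlapped no peak of any other list.

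The share of genes with one of these peaks differed between gene lists, and is set beside the 3.54% of all protein-coding genes. Replication-dependent histone genes, transcribed in S phase, had one in 22 of 67 cases (32.8%), and genes of the MCM, GINS and ORC complexes, which load and start the replication machinery, in 6 of 19 (31.6%). The histone genes are clustered, so their 22 genes shared 11 peaks, all but 1 of them on chromosome 13. ATRXΔRBR replicate 1 held ATRX at all 11 and replicate 2 at 4, and EZH2 was at 11 and 10 in WT and at 4 and 6 in ATRXKD. Poly(A) selection recovers little histone mRNA, and the whole list summed to 99.2 and 93.1 TPM in WT. Immediate early genes, which respond to growth signals within minutes, had a peak in 5 of 20 cases (25%): Egr1, Egr2, Ier2, Ier3 and Jun. Members of a list that share a cluster or a peak are not independent.

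Small nucleolar RNA host genes had a peak in 2 of 14 cases (Snhg1 and Snhg10), fibroblast markers in 2 of 14 (S100a4 and Vim), HNRNP and SR splicing factor genes in 4 of 31 (Hnrnpl, Hnrnpa1, Hnrnpc and Hnrnpul2), and translation initiation factor genes in 5 of 55. The ATRX, DAXX and H3.3 chaperone list had 1 of 10, the histone chaperone gene Asf1b. Zfp zinc finger genes had 24 of 365 (6.58%). Lists near or under 3.54% were the cytosolic ribosomal protein genes with 3 of 81, chromatin remodelling ATPase genes with 1 of 25 (Hltf), Hox genes with 1 of 39 (Hoxb2), oxidative phosphorylation genes with 2 of 83, mitochondrial ribosomal protein genes with 1 of 77, and Fox, Sox, Pax and T-box genes with 1 of 85 (Foxc1). Proteasome subunit, PRC2 subunit and imprinted genes had 0 of 39, 0 of 11 and 0 of 30. Promoter peaks of WT replicate 1 alone were at 8.46% of all protein-coding genes, and at 40.3% of the histone, 35% of the immediate early, 15.8% of the MCM, GINS and ORC, 23.1% of the proteasome, 18.2% of the PRC2 and 3.33% of the imprinted genes. A high share in the histone and immediate early lists was therefore shared by the peaks that did not recur, and the lists without one of the 880 peaks were not without ATRX peaks in replicate 1. No test of enrichment was made on these lists.

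Few genes at these peaks were called in ATRXΔRBR in the main fit. Of 844 tested, 29 passed the threshold of edgeR's quasi-likelihood test (adjusted p under 0.05), 16 higher and 13 lower than WT. That is 3.44%, where 6.88% of all 16287 genes tested were called, 2.79% higher and 4.08% lower. A total of 153 of the 844 had an unadjusted p under 0.05 in that test, as did 3355 of all 16287. The median log2 fold change was −0.01 at these genes and −0.02 over all genes. Of genes with an ATRX peak in replicate 1 alone 4.67% were called, of those with EZH2 and neither ATRX nor H3K27me3 4.14%, and of those with EZH2 and H3K27me3 29.6%. By ATRX in ATRXΔRBR, 12 of 279 genes were called where both lists had a peak, 8 of 202 for replicate 1 alone, 5 of 98 for replicate 2 alone and 4 of 91 for neither. Genes at peaks with TGACTCA were called in 10 of 84 cases, genes without EZH2 in WT in 5 of 33, and genes whose TSS was covered in 6 of 334. The lower share at these genes turned with no filter on low counts, where 8.24% of these genes and 7.45% of all genes were called. It was also lost with the replicate number, crossed between WT and ATRXΔRBR, as a block. That fit, added after seeing the data, called 34.4% of these genes and 34.1% of all genes. The total of 29 was 53 without WT replicate 2, 81 with no filter, 69 with all 6 libraries in a single fit and 9 by limma on log2(TPM + 1), 3 higher and 6 lower.

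Among the called protein-coding genes whose TPM groups did not overlap, the largest rise in ATRXΔRBR was at Blnk, an adaptor of B cell receptor signalling, with 32.2 and 31.7 TPM in WT and 106 and 112 in ATRXΔRBR. The groups did not overlap, and the log2 fold change was 1.71 (SE 0.19, adjusted p = 0.00184). S100a4 rose from 4166 and 4164 TPM to 9697 and 11816 (log2 fold change 1.32, SE 0.19, adjusted p = 0.00585). Its peak, 926 bp downstream of the TSS, overlapped no called ATRX peak in ATRXΔRBR. A missing call does not measure loss of binding. Prune2 (1.54), the integrin gene Itgb7 (1.26), Rab7b (1.10), the amino acid transporter gene Slc38a7 (1.01), Cdk20 (0.98) and Bard1 (0.97), the partner of BRCA1, also rose, with adjusted p between 0.014 and 0.0462. Hjurp, 4th by fold enrichment of its peak, had 87.4 and 169 TPM in WT and 310.4 and 195 in ATRXΔRBR. Its groups stood apart narrowly, with a log2 fold change of 0.87 (SE 0.21, adjusted p = 0.0462), and the call was lost without WT replicate 1 (adjusted p = 0.158).

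The largest fall among the same called genes was at Thsd7a, from 1.88 and 1.85 TPM in WT to 0.10 and 0.08 in ATRXΔRBR (log2 fold change −4.12, SE 0.52, adjusted p = 0.00331). The peak there, downstream of the TSS, overlapped no called ATRX peak in ATRXΔRBR. Hbegf, a ligand of the EGF receptor, fell from 138 and 125 TPM to 30.8 and 37.7 (−1.995, SE 0.22, adjusted p = 0.00177), and Crlf2, the TSLP receptor gene, from 37.9 and 27.3 to 9.20 and 9.96 (−1.63, SE 0.27, adjusted p = 0.01). In both, the values of each group lay apart. Nuak1 (−1.52), Nrep (−1.27), Golt1b (−0.98), Egr1 (−0.98) and Thbs1 (−0.86) fell as well, with adjusted p between 0.00311 and 0.0285. Of the 5 immediate early genes at these peaks, Egr1 and Ier3 (−0.83, SE 0.20, adjusted p = 0.0478) fell. Ier2, Jun and Egr2 did not pass the test, and over the whole list of 20 the test passed 1 upwards and 5 downwards. Among the highly expressed genes, Hsp90b1 fell from 1686 and 2332 TPM to 1408 and 992 (−0.81, SE 0.15, adjusted p = 0.0194). Of the gene lists, those of immediate early genes and fibroblast markers, the latter through S100a4, were the 2 with a called gene at these peaks in ATRXΔRBR.

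In the libraries labelled ATRXKD 316 of 839 genes at these peaks were called by edgeR, 117 higher and 199 lower than WT. That is 37.7%, where 33.1% of all 16748 genes tested were called, 15.2% higher and 17.8% lower. The median log2 fold change was −0.16 at these genes and −0.02 over all. On the TPM scale the balance turned: limma on log2(TPM + 1) called 198, 111 higher and 87 lower, and the median difference was 0.07 at these genes and 0.17 over all genes. Relative to all genes the median was lower on both scales, by −0.14 for counts and by −0.10 for TPM, and 16.2% of the genes had opposite signs on them. The higher share of calls at these genes did not hold throughout. It was 21.1% against 21.6% of all genes without ATRXKD replicate 1, 19.6% against 20.7% without ATRXKD replicate 2, and 23.6% against 24.6% by limma on TPM, and among protein-coding genes alone it was 41.0% against 39.5%. The total of 316 was 483 without WT replicate 1, 537 without WT replicate 2, 175 without ATRXKD replicate 1 and 159 without ATRXKD replicate 2. Both RNA-Seq comparisons used the same WT libraries, so their calls are not independent.

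Among the called protein-coding genes, Angptl4, a secreted inhibitor of lipoprotein lipase, rose most, from 0.84 and 2.15 TPM in WT to 52.6 and 59.3 in ATRXKD (log2 fold change 5.67, SE 0.22, adjusted p = 3.39e-05). Thbs1, the thrombospondin gene that had fallen in ATRXΔRBR, rose from 82.4 and 100.6 TPM to 536 and 542 (2.39, SE 0.11, adjusted p = 6.15e-05). Smpd3 (2.09), a sphingomyelinase gene, Lnpep (1.75), Eml6 (1.65), Klhdc8a (1.47) and Npc1 (1.43), the lysosomal cholesterol transporter gene, rose with adjusted p up to 0.00582. Dynlt1b also passed (4.05, adjusted p = 0.0288) at no more than 3.20 TPM in any library, and it has near-identical copies. Smpd3, Eml6 and Npc1 overlap other protein-coding genes, and the strand setting of the counting is not known. Among the genes of the strongest peaks, Hjurp rose from 87.4 and 169 TPM to 333 and 340.2 (1.02, SE 0.17, adjusted p = 0.00452) and Creb3l2 from 12.02 and 14.6 to 27.3 and 30.4 (0.84, SE 0.12, adjusted p = 0.00282). Kmt5c, at 28.1 and 31.2 TPM in WT and 29.9 and 27.1 in ATRXKD, was called lower on counts (−0.61, adjusted p = 0.0245) although its TPM values overlapped.

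Among protein-coding genes that fell in ATRXKD, 5 were at repeat-like or overlapping loci: Gm44502, Gm10717, Gm21738, Gm10801 and Gm10800. They are listed by the rule and are uncertain, and all but Gm10801 and Gm10800 were at 0 TPM in both ATRXKD libraries. Gm10800 had 4.6 and 63.7 TPM in the 2 WT libraries. Of the others, Msln, which encodes mesothelin, fell from 21.9 and 27.6 TPM to 2.25 and 1.72 (log2 fold change −3.90, SE 0.22, adjusted p = 0.000111). Mrgprf fell from 11.8 and 13.1 to 3.42 and 2.31 (−2.39, SE 0.26, adjusted p = 0.000938), and Lgals2 from 5.77 and 10.99 to 0 and 2.21 (−2.71, SE 0.78, adjusted p = 0.0355). In ATRXΔRBR, Mrgprf was called higher (0.90, SE 0.19, adjusted p = 0.0271).

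The list genes at these peaks fell more often than they rose in ATRXKD on counts. Over all genes tested 15.2% were called higher and 17.8% lower. The host gene, ribosomal protein and oxidative phosphorylation lists fell as wholes, so their falls are not particular to genes at these peaks. Snhg1, the host of several small nucleolar RNAs, fell from 850.4 and 842 TPM to 209.7 and 179 (−2.14, SE 0.12, adjusted p = 0.000122), and over the whole host gene list 9 of 12 were lower and 1 higher. Among ribosomal protein genes, Rpl37 (−1.55, SE 0.21, adjusted p = 0.00245) and Rps27l (−1.35, SE 0.13, adjusted p = 0.000602) fell and Rps29 did not pass, and over the list 53 of 77 were lower and 1 higher, with a median of −1.14. Eif4ebp1, a repressor of translation initiation, fell from 337 and 303 TPM to 115 and 116 (−1.69, SE 0.15, adjusted p = 0.000484), while Eif2ak3 was the initiation factor list gene at these peaks that rose. The 2 oxidative phosphorylation genes, Ndufb9 (−0.91) and Ndufv2 (−0.49), fell with adjusted p of 0.00749 and 0.0208, as did 39 of the 75 tested in their list, with 2 higher. Mcm4 (−0.44, adjusted p = 0.018) and Gins4 (−0.65, adjusted p = 0.0105) fell among 6 of the replication list, Hnrnpa1 (−0.93) and, with overlapping TPM values, Hnrnpc (−0.36) were called lower among 4 splicing factor genes, and 4 of 24 Zfp genes fell and 1 rose. Of the immediate early genes Ier2 (−1.40), Ier3 (−0.52) and Egr2 fell and Jun (0.52) rose, with adjusted p of at most 0.0354 for the 3 with values. None of 5 histone genes tested passed, nor did Asf1b, Hltf, Hoxb2, Foxc1, Mrpl34 or Vim.

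**Figure D4:**
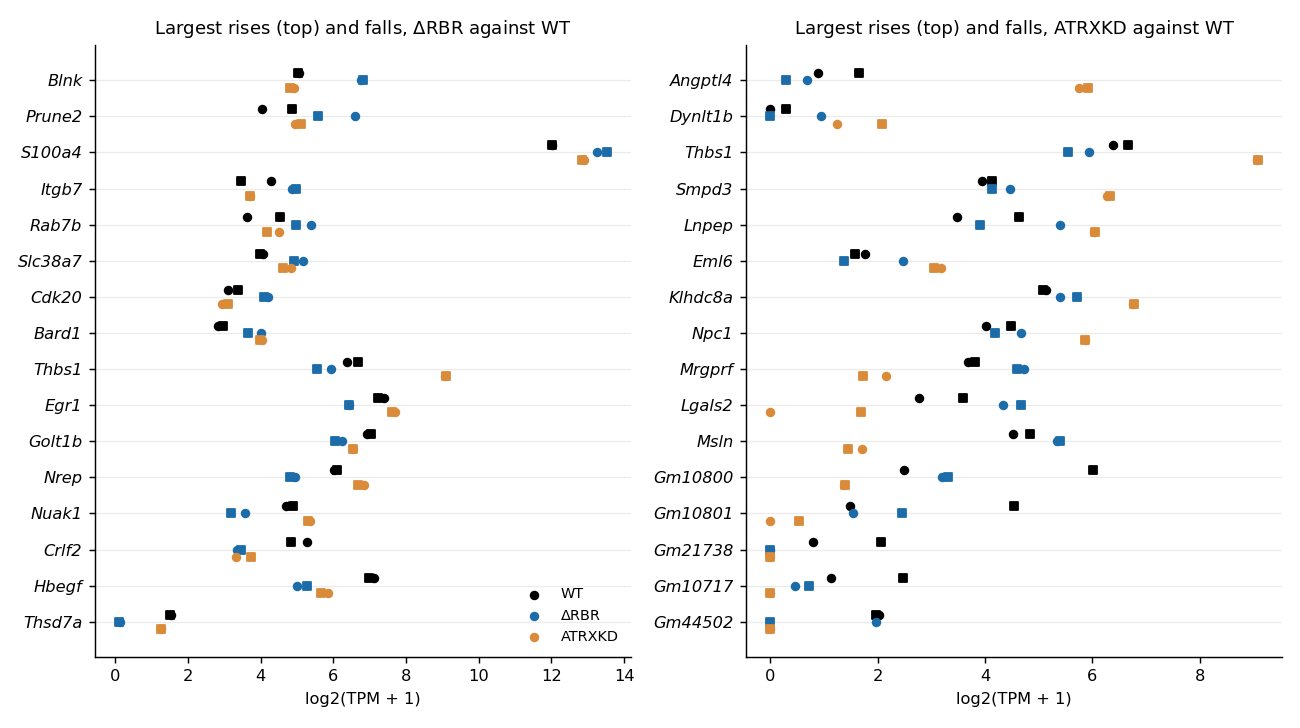
RNA level as log2(TPM + 1) in each library (circles, replicate 1, and squares, replicate 2) for the protein-coding genes at these peaks with the largest rises and falls against WT, in ATRXΔRBR (left) and ATRXKD (right). Blnk sits at 106 and 112 TPM in ATRXΔRBR against 32.2 and 31.7 in WT, and the 5 genes at the bottom right are at repeat-like or overlapping loci.

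At the peaks without a called ATRX peak in either ATRXΔRBR list the genes showed no common direction in ATRXΔRBR. Of 91 genes tested at all such peaks 4 were called (4.4%), 2 higher and 2 lower, where 6.88% of all genes were. Of the 8 with the strongest peaks, 6 were tested and 0 were called by edgeR, with log2 fold changes from −0.77 at Txn1 (adjusted p = 0.0876) to 0.37 at Slx4 (adjusted p = 0.462). Txn1 had 1232 and 982 TPM in WT and 610.5 and 744 in ATRXΔRBR. In ATRXKD, Txn1 (−0.94, SE 0.17, adjusted p = 0.00628), Smc3 (−0.42, SE 0.10, adjusted p = 0.0215) and Ifngr2 (−0.51, SE 0.12, adjusted p = 0.018) were called lower and Slx4 higher (0.81, SE 0.19, adjusted p = 0.0182). Of the genes at all such peaks 37.8% were called in ATRXKD, 11.1% higher and 26.7% lower. Over all genes 33.1% were, 15.2% higher and 17.8% lower. The TPM values of Ifngr2 overlapped between WT and ATRXKD, and its difference was 0.01 on the log2(TPM + 1) scale. Wfs1, with H3K27me3 in WT alone, had 14.6 and 11.7 TPM in ATRXΔRBR (log2 fold change 0.77, adjusted p = 0.0631) and 16.4 and 14.9 in ATRXKD (0.75, SE 0.17, adjusted p = 0.014).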

How the data were processed

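CUT&RUN (ATRX, EZH2, H3K27me3) and RNA-Seq libraries of WT, ATRXΔRBR and ATRXKD MEFs were analysed; the IgG libraries were not analysed here. Reads of CUT&RUN were mapped by the authors to mm10 with Bowtie2, and broad peaks (broad cutoff 0.1) were called with MACS2 in each library without pooling. The deposited lists give, as a mean over each peak, the fold enrichment over local background (a ratio) and the −log10 p and q values, and a deposited score that is 10 times the −log10 q and was not used. The lists do not give the depth of CUT&RUN, which can change the number of peaks called. RNA-Seq reads were aligned by the authors with STAR, and RSEM gave the deposited estimated counts and TPM of each gene. The annotation release and strand setting are not given in the sources used here.

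Members and gene lists were chosen with earlier results of these data known. Overlap was counted from 1 bp, and shares were compared between genotypes by a two-sided exact permutation test over libraries. Estimated counts were rounded, genes whose 4 libraries summed to more than 10 were kept, and ATRXΔRBR and ATRXKD were each set against WT in edgeR 4.0.16 with TMM and the quasi-likelihood test, with Benjamini-Hochberg adjustment over all genes tested and a threshold of 0.05. With 2 libraries a group, p-values measure the spread between these libraries. Alternatives used DESeq2 1.42.0, limma 3.58.1 on log2(TPM + 1), other filters, other windows and overlaps, and each library left out. The scripts were tested on simulated data. TSS came from GENCODE M21, which holds 53706 of the 53801 gene identifiers of the RNA-Seq files, and 1151 of the 1189 genes at these peaks had RNA-Seq values. Sequences came from GRCm38.p6 of RefSeq, and that of the strongest peak without EZH2 in WT is not reported here. Software was R 4.3.3, Python 3.11.15, numpy 2.4.6, scipy 1.17.1, pandas 2.3.3 and matplotlib 3.10.9.

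Genes were named by a fixed rule: the 10 highest by fold enrichment, the 8 protein-coding genes with the largest called rise and the 8 with the largest called fall in each comparison whose TPM groups did not overlap, all peaks with H3K27me3 in both WT lists, the 8 strongest without ATRX in ATRXΔRBR and the 8 strongest without EZH2 in WT, up to 4 genes of each list by WT TPM, and the peaks at the limits of the rule. Others are said to be chosen after their values were seen, or are members of a small count.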

Additional observations from a re-analysis of the deposited data

How the results depend on the processing

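The number of peaks was 880, and 390 when a q-value of 0.01 or less was asked in both WT lists. The share with ATRX in ATRXΔRBR (64.8%) was 75.4% under that q-value, 43.6% when the other list was held to it, 51.0% when at least 50% of the peak had to be covered, and 60.0% to 69.5% with each ATRXΔRBR library left out. The share with EZH2 in WT (87.0%) was 90.7% with a window of 1 kb, 94.0% for protein-coding genes only, 79.5% with 50% covered, 81.9% with the q-value in the other list and 84.5% to 89.4% with a library left out, and that in ATRXΔRBR (76.1%) ranged from 67.3% to 84.9% with a library left out. The share with EZH2 in ATRXKD (53.8%) was 61.1% with 1 kb, 66.6% for protein-coding genes, 49.3% for the start of any transcript, 59.0% with the q-value in WT, 44.4% with 50% covered, 45.8% with the q-value in the other list, and 51.0% to 56.6% with a library left out.

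Of H3K27me3, the WT share (0.455%) was 0.621% with 50% overlap of the replicates, 1.03% and 0.227% with the q-value in WT ATRX or in the other list, 1.02% when any peak at the TSS counted, and 0.341% to 0.568% with a library left out. The ATRXΔRBR share (0.511%) was 0.682% for protein-coding genes, 0.621% with 50% replicate overlap, 0.385% with the q-value in WT, 0.284% with 50% covered, 2.50% for any peak at the TSS, and 0.455% to 0.568% with a library left out. The ATRXKD share (1.53%) was 1.14% for protein-coding genes, 1.32% for any transcript, 2.02% with 50% replicate overlap, 1.63% starting from replicate 2, 2.44% and 1.42% with the q-value in WT or in the other list, 1.99% for any peak at the TSS, 0.517% without the peaks of fold enrichment under 2 (chosen after seeing the data), and 1.48% to 1.59% with a library left out.

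The mean of the WT median TPM over all genes (14.3) was 19.3 with 1 kb, 36.9 for protein-coding genes, 16.2 for any transcript, 10.6 with the q-value in WT, 23.1 for the nearest gene, 40.9 for genes at 1 TPM or more, and 12.99 to 15.5 with a library left out. GC content over whole peaks (56.0%) was 57.2% with 1 kb, 58.4% for protein-coding genes, 55.6% for any transcript, 56.3% by peak midpoint and 55.0% with the q-value in WT.

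Genes called in ATRXΔRBR (29) were 39 by DESeq2, 81 with no filter, 69 with all 6 libraries in a fit, 9 by limma on TPM (added after seeing the data), and 35 to 53 with a library left out. In ATRXKD (316) they were 287 by DESeq2, 198 by limma on TPM, and 159 to 537 with a library left out. Replicate numbers are shared between genotypes, but no label says that they pair libraries. Deviations of same-numbered libraries from their group means correlated at −0.76 (ATRXΔRBR) and −0.24 (ATRXKD) over genes. With the replicate number as a block, 24 and 321 genes were called. With the numbers crossed, added after seeing the data, 290 and 369 were called at these peaks and 5547 and 6494 over all genes. Of named genes called, 7 of 20 in ATRXΔRBR and 29 of 49 in ATRXKD kept their call under every alternative, and the direction turned at Ifngr2 alone, whose log2 change in ATRXKD was 0.0134 by limma on TPM. The causes of these differences were not tested.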
